A study of Mus musculus with 9 samples.

Results

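The genes described here are those named as mitochondrial ribosomal proteins, chosen by name alone: every gene called Mrpl or Mrps followed by a number. The names gave 79 gene IDs of 54986 in the files, 48 for the large subunit (Mrpl) and 31 for the small subunit (Mrps). The rule uses names and no measured value, so a name alone places a gene in the ribosome and in a subunit. All 79 passed the filter of at least 1 TPM (a transcript level scaled for transcript length and for the size of the library) in at least 3 of the 9 libraries, as did 15837 genes in all. The 79 gene IDs carry 77 names, because Mrps10 and Mrps23 each have a second ID on a patch sequence outside the chromosomes. Reads of such near-identical copies can be split between them, so the values of these 4 IDs are uncertain.

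Mitochondria keep their own ribosome, which translates the few proteins encoded by mitochondrial DNA, all of them core subunits of the oxidative phosphorylation complexes. Its RNA comes from the mitochondrial genome, whereas its proteins are encoded in the nucleus, made in the cytosol and imported. Some of the proteins descend from those of the bacterial ribosome and others are particular to mitochondria. The large subunit forms peptide bonds and releases the new chain through an exit tunnel facing the inner membrane, and the small subunit decodes the messenger RNA.

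The 9 RNA libraries, 3 in each of 3 groups, came from primary mouse embryonic fibroblasts of strain C57BL/6 whose label is D4-OSKM-2ndMEFs. The groups were a control, cells with Zscan4f overexpression and cells with Zscan4f3A overexpression. Zscan4f is a zinc finger protein with a SCAN domain, known from the two-cell embryo, and the series concerns how such proteins and the DNA demethylase Tet2 act together in reprogramming. OSKM stands in the label of every group, control included, so the label gives no group that lacks it; no age or vector is given, the control is the group without a named overexpressed gene, and no source used here explains D4 or 3A. Nothing in the labels says that the 3 libraries of a group came from separate cultures, so p-values measure the spread between these libraries, which may be technical.

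Zscan4f itself followed the labels, with a mean of 0.430 TPM in control, 564 TPM in the Zscan4f group and 772 TPM in the Zscan4f3A group. Aligned sequence ran from 3.31 gigabases in Zscan4f3A replicate 3 to 8.39 gigabases. All 12 fibroblast markers examined passed the filter, with summed levels of 13831 to 13860 TPM in control, 13907 to 14097 TPM with Zscan4f and 13715 to 14057 TPM with Zscan4f3A. Of 4 macrophage markers, 3 lay under 1 TPM in every library (Adgre1, Csf1r, Ptprc). The same held for 3 of 4 markers of endothelium (Pecam1, Cdh5, Kdr) and of skeletal muscle (Myog, Actc1, and Myod1 at 0). The remaining marker of each list (Cd68, Tek and Des) passed the filter. All 6 epithelial markers also passed, with sums of 65.3 to 66.6 TPM in control and 195 to 200 TPM with Zscan4f. With Zscan4f3A that sum was 76.2 to 82.6 TPM. Cd68 and Tek rose with Zscan4f too, as given further below.

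The members lie on many chromosomes, so the sequence before their starts was compared. RefSeq promoter windows of 300 bases (250 before to 50 after the start, GRCm38.p6) were matched for 68 of the 77 names, giving 74 windows. Searched on both strands, the core of the ETS factor site (CCGGAAG) lay in 33.8% of member windows and in 8.86% of all 32851 windows. The NRF1 motif (GCGCANGCG) lay in 21.6% of member windows against 6.25%, and the YY1 motif (AAGATGGC) in 16.2% against 2.75%. The E-box (CACGTG), which Myc can bind, lay in 9.46% against 7.15%. All windows came from 27025 genes, more than the 15837 that passed the filter, whereas every member passed it. These gaps are thus not against expressed genes alone and are not shown to be particular to the members. The ETS core and the YY1 motif share the letters AAG and can overlap. Among the 7 windows of members that rose with Zscan4f, 4 held the ETS core, 2 the NRF1 motif, 1 the YY1 motif and 0 the E-box. Among the 3 windows of members that fell, 2 held the ETS core, 2 the YY1 motif and 0 either of the others. A match to these letters describes the window and is not evidence of a bound site.

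The sequences below are shown because they stand upstream of 6 members whose transcript level changed with Zscan4f: Mrps12 and Mrps18a, which fell, and Mrpl34, Mrpl45, Mrpl55 and Mrps27, which rose. Each is the longest stretch of at least 80 bases before the RefSeq start that holds no annotated exon, read 5′ to 3′ on the gene's strand (GRCm38.p6). Capitals mark the ETS core or the NRF1 motif on either strand, so that CTTCCGG is the ETS core read from the other strand. The Mrps12 stretch (chr7:28741822-28741991, minus strand) is the gap between Mrps12 and its neighbour Sars2, which is read the other way, and the ETS core and YY1 motif of its window lie outside the stretch, past the Mrps12 start and on the Sars2 side. The Mrps18a stretch lies at chr17:46110754-46110985, plus strand. That of Mrpl34 lies at chr8:71464676-71464925, plus strand, and that of Mrpl45 at chr11:97315466-97315715, plus strand. That of Mrpl55 lies at chr11:59202386-59202485, plus strand, and that of Mrps27 at chr13:99344706-99344785, plus strand.
Mrps12: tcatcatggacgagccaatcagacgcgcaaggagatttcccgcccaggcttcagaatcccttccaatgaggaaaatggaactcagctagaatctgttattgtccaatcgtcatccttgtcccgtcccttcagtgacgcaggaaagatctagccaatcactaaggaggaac
Mrps18a: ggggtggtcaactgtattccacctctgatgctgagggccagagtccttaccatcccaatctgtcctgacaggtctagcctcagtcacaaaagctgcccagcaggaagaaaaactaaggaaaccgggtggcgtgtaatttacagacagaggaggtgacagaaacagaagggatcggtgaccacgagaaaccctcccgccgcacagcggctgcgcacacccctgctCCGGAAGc
Mrpl34: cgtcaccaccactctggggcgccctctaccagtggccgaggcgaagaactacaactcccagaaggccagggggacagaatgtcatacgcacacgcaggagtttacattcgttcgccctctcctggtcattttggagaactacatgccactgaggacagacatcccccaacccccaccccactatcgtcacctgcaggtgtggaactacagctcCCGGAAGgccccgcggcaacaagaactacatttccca
Mrpl45: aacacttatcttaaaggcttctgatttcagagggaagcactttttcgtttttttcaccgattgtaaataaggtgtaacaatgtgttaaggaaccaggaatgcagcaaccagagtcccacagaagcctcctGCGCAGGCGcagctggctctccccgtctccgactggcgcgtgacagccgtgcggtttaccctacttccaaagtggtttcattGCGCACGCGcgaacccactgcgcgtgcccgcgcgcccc
Mrpl55: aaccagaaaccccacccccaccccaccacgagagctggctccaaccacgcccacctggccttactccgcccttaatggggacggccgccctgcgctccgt
Mrps27: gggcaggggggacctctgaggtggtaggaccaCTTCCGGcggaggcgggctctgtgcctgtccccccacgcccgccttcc
The Mrpl45 stretch held the NRF1 motif 2 times, and those of Mrps18a, Mrpl34 and Mrps27 held the ETS core 1 time each. None of the searched letters were found in the stretches of Mrps12 and Mrpl55.

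The members were moderately expressed and evenly measured. Their mean level over the 9 libraries ran from 6.06 TPM to 229 TPM with a median of 38.5 TPM, and 76 of 79 lay at 10 TPM or more. The median over all genes tested was 17.4 TPM. Within groups the median coefficient of variation was 7.16%, against 9.68% over all genes tested. Mrps6, of the small subunit, had the highest mean, followed by Mrpl52 (125 TPM), Mrpl20 (115 TPM), Mrpl33 (99.7 TPM) and Mrpl24 (97.9 TPM). Mrps6 shares 19.9% of its exonic bases with Gm49711 and 10.4% with Slc5a3 on the same strand, so its level is uncertain. The lowest 5 were Mrpl47 (6.06 TPM), Mrpl53 (9.28 TPM), Mrpl19 (just under 10 TPM), Mrpl35 (10.5 TPM) and Mrps35 (10.8 TPM). The last 3 were not separated beyond their spread within groups.

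A few members varied widely inside a group. The coefficient of variation was 30.1% for Mrpl53, 23.6% for Mrpl48 and 23.3% for Mrpl3, a protein next to the peptidyl transferase centre. Mrpl53 stood at 11.1, 9.11 and 6.48 TPM in control, 11.05, 10.9 and 10.5 TPM with Zscan4f and 12.7, 7.43 and 4.28 TPM with Zscan4f3A. It shares 88.0% of its exonic bases with Gm42688 on the same strand, so the reads of the pair cannot be told apart. Mrpl3 was low in 2 libraries, control replicate 1 (22.5 TPM) and Zscan4f3A replicate 3 (20.7 TPM), and lay between 35.3 and 43.6 TPM in the other 7. Zscan4f3A replicate 3 was also the library of least depth.

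The 3 comparisons set overexpressed Zscan4f and Zscan4f3A against control and against each other. With Zscan4f most large subunit members lay slightly above control, while the small subunit held genes that changed in both directions, Mrps31 and Mrps12 downward. Of 48 large subunit members, 6 rose and 0 fell against control (limma, p adjusted by Benjamini-Hochberg across the whole table, threshold 0.05). Of 31 small subunit members, 3 rose and 3 fell. These subunits follow the gene names. With Mrps18a and Mrps30 placed in the large subunit by structure, 6 of 50 large subunit members rose and 1 fell. In the small subunit by structure 3 of 29 rose and 2 fell. Together 15.2% of members were called, against 18.5% of all genes tested, so the share called was not above the background. By direction, 11.4% of members rose against 8.74% of all genes, and 3.80% fell against 9.71%. These shares are a description, with no test over the members.

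The median log2 fold change against control was 0.13 for the large subunit, 0.06 for the small subunit and 0.00 over all genes tested. A value above 0 was found for 41 of 48 large subunit members (85.4%) and 20 of 31 small subunit members (64.5%), against 49.5% of all genes. In 17 large subunit members all 3 Zscan4f libraries lay above all 3 control libraries, and in 1 all lay below. For the small subunit the counts were 5 and 5. Over all genes the shares were 19.0% above and 19.2% below. Scaling did not turn these medians: under median-of-ratios scaling 42 large and 20 small subunit members lay above 0, and under quantile normalization 40 and 20. Over all members, called or not, log2 fold changes ran from -0.15 to 0.39 in the large subunit and from -0.57 to 0.55 in the small.

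**Figure D1:**
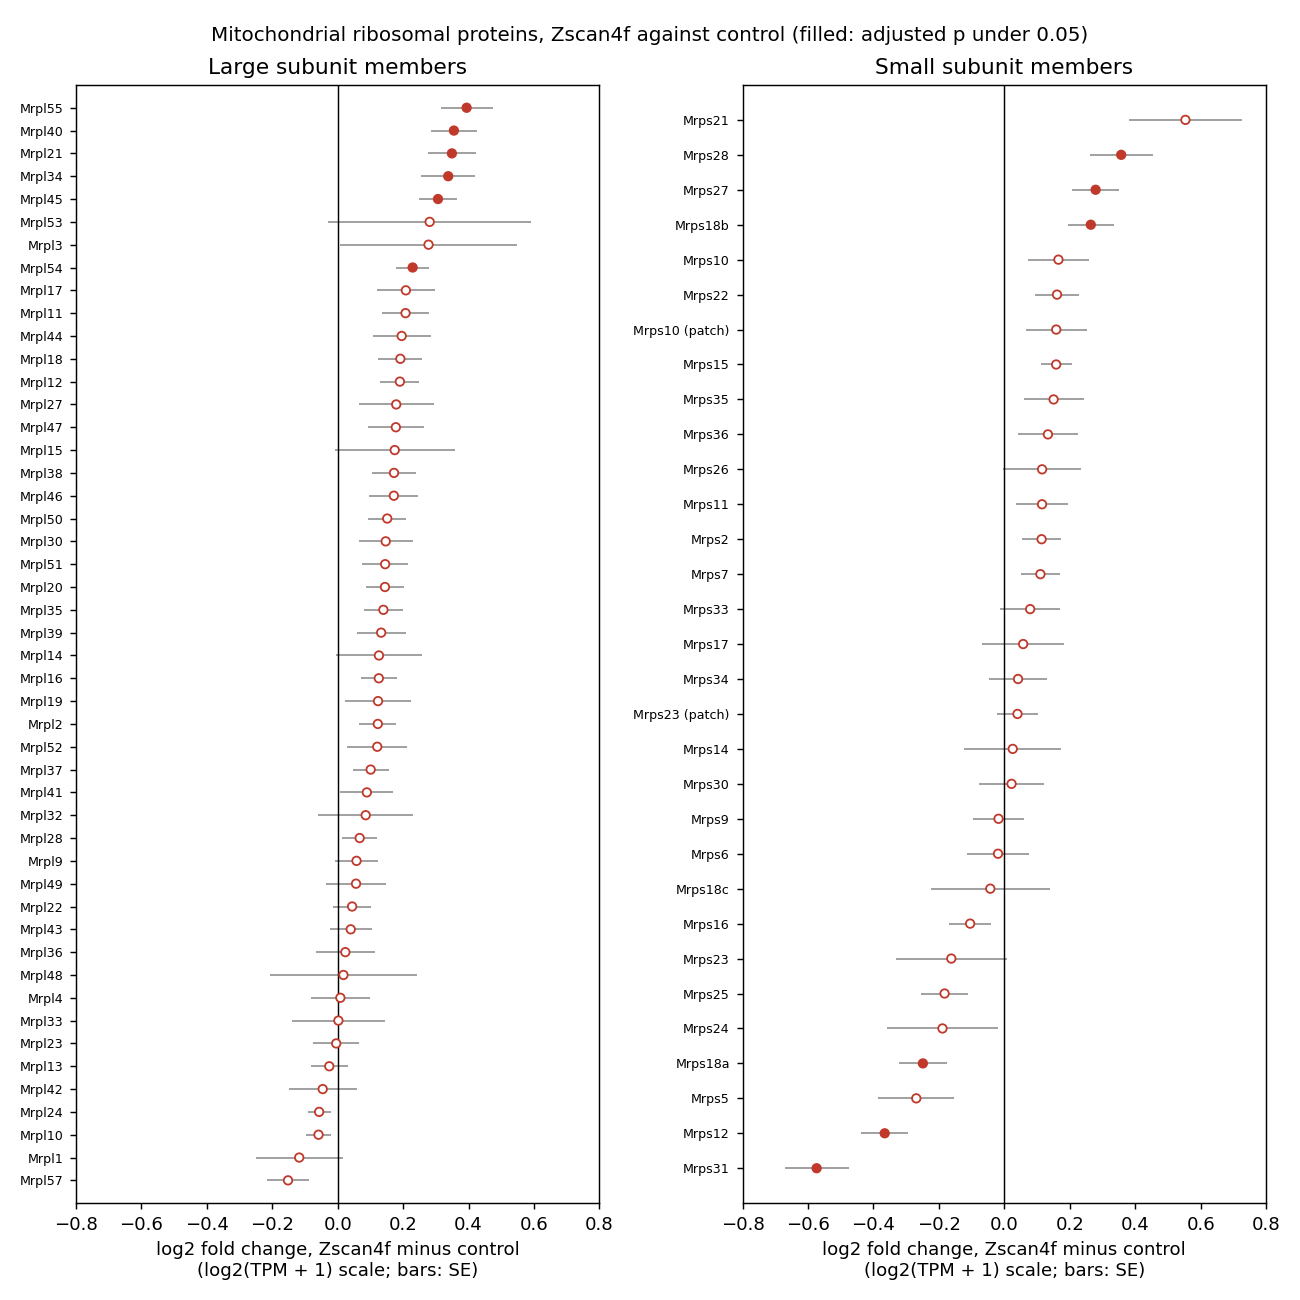
Log2 fold change of each member, Zscan4f minus control, on the log2(TPM + 1) scale, ranked within the large subunit (left) and small subunit (right); bars are standard errors and filled points have an adjusted p under 0.05. With subunits assigned by gene name, 41 of 48 large subunit points lie right of 0, all 6 filled ones among them. The small subunit has 3 filled points on each side.

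Mrps31 and Mrps12 fell most, and both are proteins of the small subunit. Mrps31, a protein of the small subunit head that is particular to mitochondria (chr8:22411361-22429665, plus strand), stood at 21.7, 24.01 and 19.3 TPM in control. With Zscan4f it stood at 14.53, 14.1 and 13.9 TPM, and with Zscan4f3A at 23.4, 22.7 and 19.0 TPM. The Zscan4f libraries thus lay below both other groups, which overlapped each other. The log2 fold change was -0.57 (SE 0.10) against control (limma, adjusted p = 0.0042) and -0.57 against Zscan4f3A (adjusted p = 0.0052), or 0.672 of the level on the log2(TPM + 1) scale.

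Mrps12, the counterpart of the bacterial protein that sits at the decoding site (chr7:28739641-28741820, minus strand), stood at 40.5, 40.8 and 44.4 TPM in control. Its levels with Zscan4f were 29.9, 36.0 and 31.3 TPM, all below control, and with Zscan4f3A they were 46.5, 46.9 and 48.7 TPM, all above control. It fell by 0.37 on the log2 scale against control (SE 0.07, adjusted p = 0.0084). Against Zscan4f3A it fell by 0.54 (adjusted p = 0.0016). The difference between Zscan4f3A and control, 0.17, was not called (adjusted p = 0.56). Mrps31 and Mrps12 were called in both comparisons under every one of 20 alternative settings, each left-out library included.

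Mrps18a also fell with Zscan4f, although the call was weak. It belongs to a trio of related proteins with Mrps18b and Mrps18c, and in the assembled ribosome Mrps18a sits in the large subunit while the other two sit in the small subunit. Mrps18a (chr17:46110986-46128910, plus strand) stood at 52.5, 64.7 and 59.6 TPM in control, 47.4, 49.4 and 51.1 TPM with Zscan4f and 49.2, 47.4 and 51.1 TPM with Zscan4f3A. Both overexpression groups lay wholly below control and overlapped each other. The log2 fold change was -0.25 against control for each of them, with adjusted p = 0.049 for Zscan4f and 0.44 for Zscan4f3A, and 0.00 between them. The call held in 4 of 20 alternatives. It was lost without any 1 library except control replicate 1 (adjusted p 0.052 to 0.14) and under 8 other settings (0.050 to 0.10).

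Mrps18b went the other way. It stood at 37.1, 40.9 and 44.4 TPM in control, 49.6, 47.5 and 50.3 TPM with Zscan4f and 50.3, 44.9 and 47.0 TPM with Zscan4f3A. Both overexpression groups again lay above control throughout, and they overlapped each other. The log2 fold change against control was 0.26 with Zscan4f (SE 0.07, adjusted p = 0.033) and 0.21 with Zscan4f3A (adjusted p = 0.48). The Zscan4f call was lost without control replicate 1 or 2 or any 1 Zscan4f library (adjusted p 0.059 to 0.10) and under 2 other settings (0.057 and 0.068). Mrps18b shares 30.5% of its exonic bases with Gm16279 on the opposite strand, and the library kit is not stated to keep strand, so reads of the pair cannot be told apart. Mrps18c, at 51.6, 46.9 and 47.4 TPM in control and 51.3, 43.4 and 47.0 TPM with Zscan4f, was not called (log2 fold change -0.04, adjusted p = 0.91). Mrps18c shares 23.2% of its exonic bases with Gm43511 on the same strand, so its level is uncertain. With Zscan4f3A Mrps18c stood at 55.2, 52.1 and 31.6 TPM, the last in the library of least depth.

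Of the large subunit members, 4 rose in every alternative setting: Mrpl55, Mrpl40, Mrpl21 and Mrpl45. Mrpl55 (chr11:59202486-59206134, plus strand) stood at 22.3, 21.2 and 23.01 TPM in control and 28.9, 29.02 and 30.5 TPM with Zscan4f. With Zscan4f3A it stood at 26.9, 21.8 and 22.8 TPM, overlapping control but below every Zscan4f library. It rose by 0.39 on the log2 scale against control (SE 0.08, adjusted p = 0.0096), 1.31-fold. Mrpl40, a protein of the central protuberance (chr16:18872018-18876862, minus strand), stood at 39.8, 36.8 and 44.0 TPM in control, 52.1, 53.3 and 49.4 TPM with Zscan4f and 40.4, 42.6 and 44.0 TPM with Zscan4f3A. Only the Zscan4f group stood apart, and the rise against control was 0.36 (SE 0.07, adjusted p = 0.0081).

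Mrpl21, the counterpart of a bacterial large subunit protein (chr19:3282901-3292837, plus strand), stood at 43.0, 45.6 and 50.3 TPM in control. Its levels were 64.4, 54.3 and 59.1 TPM with Zscan4f and 50.9, 52.8 and 52.5 TPM with Zscan4f3A. The 3 groups did not overlap, with Zscan4f3A between the others, and the log2 fold change of Zscan4f against control was 0.35 (SE 0.07, adjusted p = 0.012). Mrpl45, which lies at the tunnel exit and helps hold the ribosome to the inner membrane (chr11:97315716-97329920, plus strand), showed the same order. It stood at 26.5, 27.8 and 26.2 TPM in control, 34.6, 34.9 and 30.8 TPM with Zscan4f and 29.9, 29.3 and 29.1 TPM with Zscan4f3A. The rise against control was 0.31 (SE 0.06, adjusted p = 0.0070). Neither Mrpl21 (adjusted p = 0.15) nor Mrpl45 (adjusted p = 0.079) was called between Zscan4f and Zscan4f3A, and neither was called between Zscan4f3A and control (both adjusted p = 0.57).

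Mrpl34, Mrpl54, Mrps27 and Mrps28 rose with Zscan4f too, in calls that were lost when some single libraries were left out. Mrpl34, the counterpart of a small bacterial large subunit protein (chr8:71464959-71465747, plus strand), stood at 64.7, 58.0 and 51.8 TPM in control, 68.6, 78.1 and 74.2 TPM with Zscan4f and 68.7, 73.8 and 69.6 TPM with Zscan4f3A. Both overexpression groups lay above control, by a log2 fold change of 0.34 (adjusted p = 0.022) and 0.28 (adjusted p = 0.44). The first was lost without control replicate 2 or 3 or Zscan4f replicate 2 or 3 (adjusted p 0.056 to 0.078) and without the filter on low values (0.054). Mrpl54, at the base of the stalk that receives translation factors (chr10:81264713-81266934, minus strand), stood at 85.0, 86.9 and 80.4 TPM in control, 96.3, 95.5 and 105 TPM with Zscan4f and 91.3, 85.3 and 87.8 TPM with Zscan4f3A. Its Zscan4f libraries lay above all others. It rose by 0.23 (SE 0.05, adjusted p = 0.014), a call lost without control replicate 3 or Zscan4f replicate 3 (adjusted p 0.050 and 0.052).

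Mrps27, a pentatricopeptide repeat protein of the small subunit (chr13:99344786-99415562, plus strand), stood at 21.4, 21.7 and 20.8 TPM in control, 24.4, 24.8 and 29.1 TPM with Zscan4f and 21.2, 20.5 and 21.7 TPM with Zscan4f3A. Zscan4f replicate 3 was the highest, and the Zscan4f libraries lay above both other groups. The rise was 0.28 against control (adjusted p = 0.026) and 0.29 against Zscan4f3A (adjusted p = 0.027). The first was lost without Zscan4f replicate 3 or any 1 control library (adjusted p 0.059 to 0.081), and the second without Zscan4f replicate 3 or Zscan4f3A replicate 1 or 2 (0.061 to 0.082). Mrps27 shares 24.2% of its exonic bases with 6430562O15Rik on the opposite strand. Mrps28 (chr3:8802146-8923918, minus strand) stood at 28.4, 22.03 and 27.2 TPM in control, 31.8, 33.1 and 34.9 TPM with Zscan4f and 31.1, 28.0 and 27.4 TPM with Zscan4f3A. Its Zscan4f libraries lay above all others, with a log2 fold change of 0.36 against control (SE 0.10, adjusted p = 0.033). That call was lost without control replicate 2 or 3 or any 1 Zscan4f library (adjusted p 0.053 to 0.11) and without the filter on low values (0.078).

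**Figure D2:**
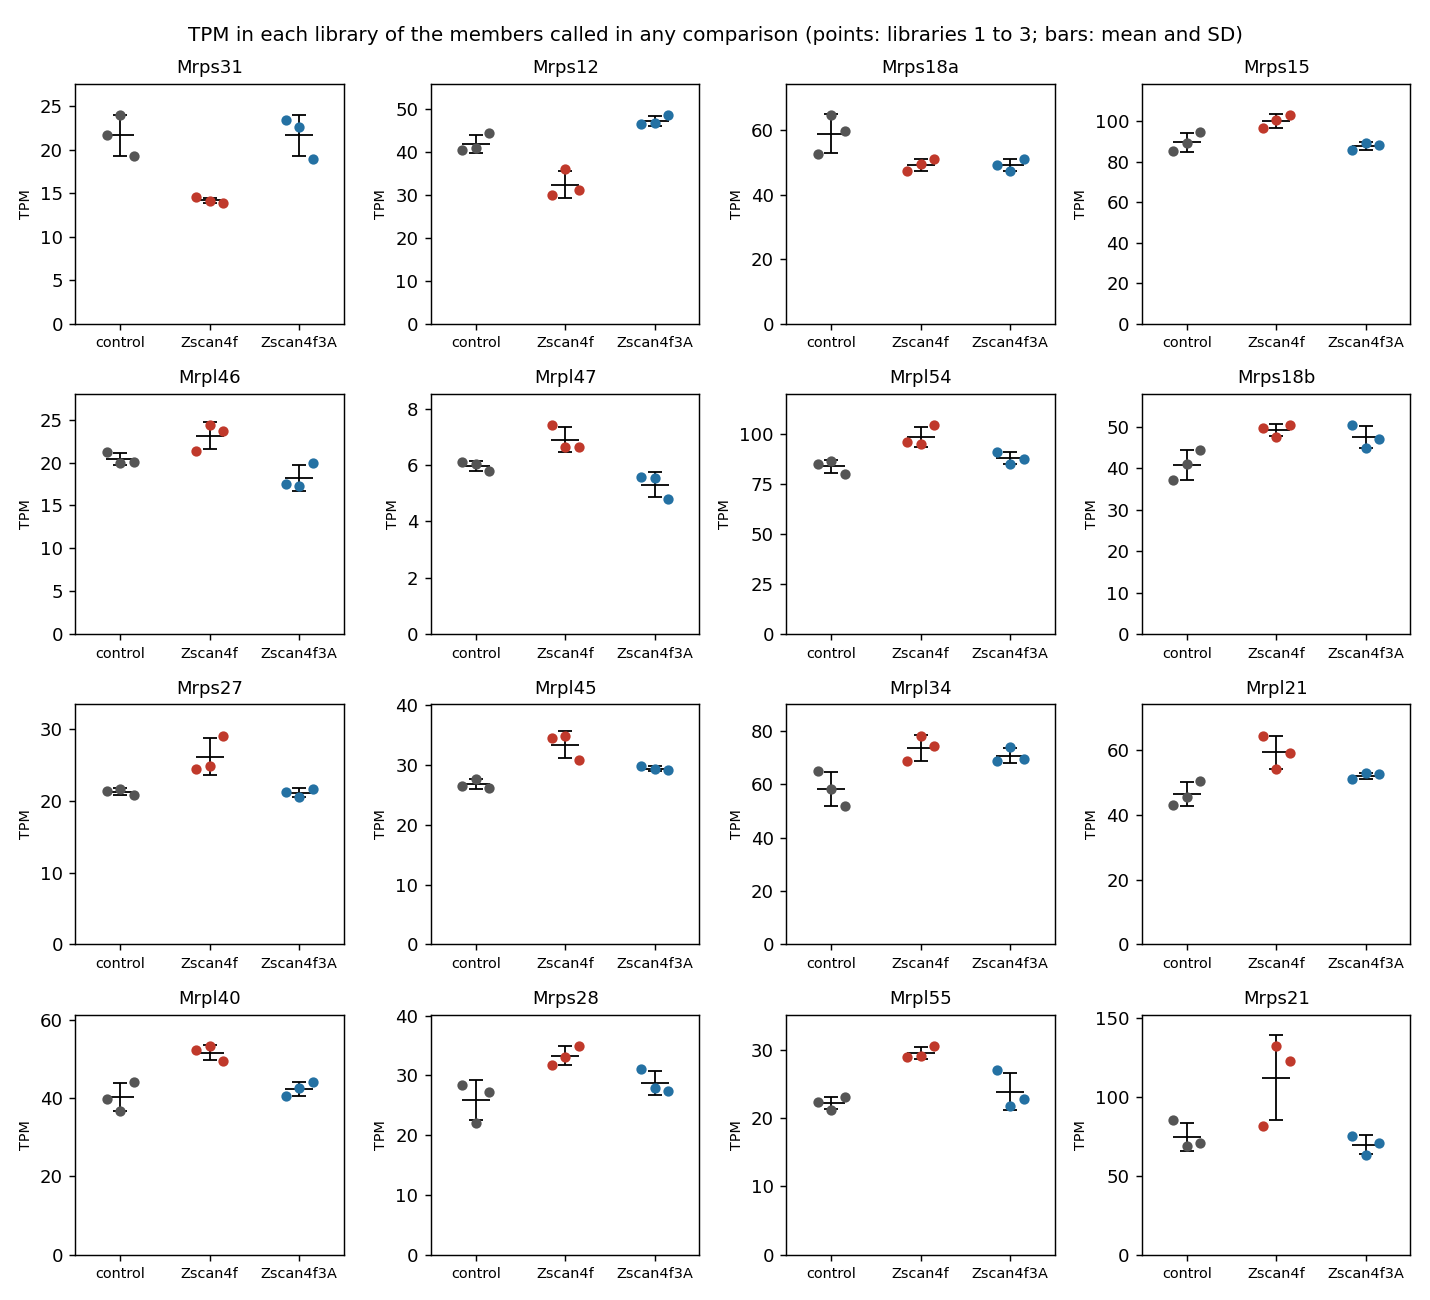
TPM of the 16 members called in any comparison; each point is a library, with 3 per group, horizontal bars are means, error bars are SD and each vertical axis starts at 0. Mrps31 and Mrps12 are lowest in the Zscan4f group, Mrps18a is highest in control, and the other 13 have their highest mean in the Zscan4f group.

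At the ends of the ranking stood members that were not called. In the large subunit the lowest log2 fold changes against control were those of Mrpl57 (-0.15, adjusted p = 0.15), Mrpl1 (-0.12, adjusted p = 0.62) and Mrpl10 (-0.06, adjusted p = 0.35). In the small subunit Mrps5 followed Mrps31 and Mrps12, at 24.4 ± 3.74 TPM (SD, n = 3) in control and 20.0 ± 1.53 TPM with Zscan4f (log2 fold change -0.27, limma adjusted p = 0.15). The highest value was that of Mrps21, a small protein of the small subunit platform with a bacterial counterpart (0.55, SE 0.17, adjusted p = 0.057). Mrps21 stood at 85.2, 68.8 and 70.7 TPM in control, but at 81.5, 132.4 and 122.9 TPM with Zscan4f. Zscan4f replicate 1 thus overlapped the control libraries while replicates 2 and 3 lay far above them.

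By origin, the calls against control fell into both classes of protein. Of 29 large subunit members with a bacterial counterpart, 2 rose (Mrpl21, Mrpl34), and of 18 particular to mitochondria 3 rose (Mrpl40, Mrpl45, Mrpl54). Mrpl55, which also rose, was on neither of these lists, so its origin is left unassigned. Over all genes 8.74% rose and 9.71% fell, and with lists this short the counts are a description only. By region, 1 of 5 stalk proteins, 1 of 6 at the rim of the exit tunnel and 1 of 6 in the central protuberance rose, and 0 fell. Against Zscan4f3A the counts were 0, 1 and 2, where 7.48% of all genes rose. Of 17 small subunit gene IDs with a bacterial counterpart, 1 rose (Mrps28) and 1 fell (Mrps12). Of 11 listed as particular to mitochondria, 2 rose (Mrps18b, Mrps27) and 1 fell (Mrps31), although Mrps18b resembles Mrps18c, so its place in that list is uncertain. Mrps18a, which fell, was on neither small subunit list, and nor were Mrps30 and Mrps36, which were not called. The median log2 fold change was 0.13 for proteins with a bacterial counterpart and 0.14 for those particular to mitochondria in the large subunit, and 0.06 and 0.08 in the small.

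Zscan4f3A against control gave no called member. In the large subunit 0 of 48 and in the small subunit 0 of 31 passed limma's test, and over all genes 0.0316% did (0.0189% higher and 0.0126% lower). At an unadjusted p under 0.05 there were 5 large and 3 small subunit members, against 1389 of the 15837 genes tested. The median log2 fold change was 0.03 for the large and 0.00 for the small subunit, and 27 of 48 and 16 of 31 members lay above 0, against 46.3% of all genes. All 3 Zscan4f3A libraries lay above control in 7 large and 2 small subunit members and below it in 3 and 1, where 6.29% and 9.09% of all genes did so. The largest values in the large subunit were those of Mrpl17 (0.33, adjusted p = 0.41), Mrpl34 (0.28) and Mrpl21 (0.17), and the lowest those of Mrpl33 (-0.23, adjusted p = 0.66), Mrpl13 (-0.21, adjusted p = 0.41) and Mrpl53 (-0.20, adjusted p = 0.88).

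Mrpl17, at the tunnel exit, stood at 14.7, 12.2 and 13.9 TPM in control and 17.4, 16.9 and 17.4 TPM with Zscan4f3A. The Zscan4f libraries, at 15.97, 17.3 and 14.3 TPM, overlapped both. Mrpl13 stood at 73.3, 64.4 and 64.9 TPM in control, 65.3, 65.7 and 67.7 TPM with Zscan4f and 56.7, 57.7 and 60.3 TPM with Zscan4f3A, so that its Zscan4f3A libraries lay below both other groups without a call. In the small subunit the values ran from -0.27 for Mrps24 (adjusted p = 0.66), -0.25 for Mrps18a and -0.22 for the chromosomal copy of Mrps23 (adjusted p = 0.71) up to 0.15 for Mrps28 (adjusted p = 0.66), 0.17 for Mrps12 and 0.21 for Mrps18b. The chromosomal Mrps23 stood at 24.001 TPM in control replicate 3 and between 13.8 and 15.8 TPM elsewhere, whereas its patch copy lay between 13.9 and 15.7 TPM in all 9 libraries.

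The comparison of Zscan4f with Zscan4f3A tests the 2 overexpressed forms against each other directly. Here 4 of 48 large subunit members rose and 0 fell, and 3 of 31 small subunit members rose and 2 fell. That is 11.4% of the members against 15.1% of all genes. By direction, 8.86% rose and 2.53% fell, against 7.48% and 7.64% of all genes. The median log2 fold change was 0.10 for the large and 0.06 for the small subunit, with 39 of 48 and 21 of 31 members above 0 and 50.4% of all genes. This comparison shares its Zscan4f libraries with the one against control, so the 2 sets of values are not independent. Beside Mrps31, Mrps12 and Mrps27, already given, the called members were Mrpl40, Mrpl46, Mrpl47, Mrpl55, Mrps15 and Mrps21.

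Mrpl46, of the central protuberance (chr7:78775236-78783531, minus strand), stood at 17.5, 17.2 and 19.9 TPM with Zscan4f3A, 21.4, 24.3 and 23.7 TPM with Zscan4f and 21.2, 20.0 and 20.0 TPM in control. The 3 groups did not overlap, with control in the middle, and the log2 fold change between the overexpression groups was 0.33 (SE 0.07, adjusted p = 0.0195). The call was lost without Zscan4f replicate 2 or 3 or Zscan4f3A replicate 1 or 2 (adjusted p 0.061 to 0.069). Mrpl47, at the exit tunnel and the least abundant member, showed the same order at 5.59, 5.53 and 4.80 TPM with Zscan4f3A, 7.42, 6.63 and 6.66 TPM with Zscan4f and 6.12, 6.04 and 5.78 TPM in control. Its log2 fold change was 0.33 (SE 0.09, adjusted p = 0.035), lost when any 1 of the 9 libraries was left out (adjusted p 0.052 to 0.11). Mrpl47 shares 13.9% of its exonic bases with Ndufb5 and 10.2% with Actl6a, both on the opposite strand, and Mrpl46 shares 12.2% with Mrps11.

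Mrps15, whose bacterial counterpart binds ribosomal RNA early in assembly (chr4:126046925-126055532, plus strand), stood at 85.6, 89.2 and 88.1 TPM with Zscan4f3A, 96.4, 101 and 103 TPM with Zscan4f and 85.1, 89.1 and 94.4 TPM in control. The Zscan4f libraries lay above both other groups, which overlapped. It rose by 0.19 against Zscan4f3A (SE 0.05, adjusted p = 0.030), a call lost without Zscan4f replicate 2 or 3 or any 1 Zscan4f3A library (adjusted p 0.058 to 0.10). Mrps21 stood at 75.2, 63.6 and 70.7 TPM with Zscan4f3A and rose by 0.65 (SE 0.17, adjusted p = 0.037). That call was lost without control replicate 2 or 3, Zscan4f replicate 2 or 3 or any 1 Zscan4f3A library (adjusted p 0.052 to 0.11).

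Mrpl40 rose by 0.28 against Zscan4f3A (adjusted p = 0.028) and Mrpl55 by 0.30 (adjusted p = 0.037), both with Zscan4f libraries wholly above. The Mrpl40 call was lost without any 1 Zscan4f library or Zscan4f3A replicate 1 or 2 (adjusted p 0.050 to 0.093), and that of Mrpl55 without any 1 library other than Zscan4f3A replicate 1 (0.051 to 0.11). Each call against Zscan4f3A other than those of Mrps31 and Mrps12 was also lost under 1 to 4 other settings, among them no filter on low values and a fit of the 2 groups alone (adjusted p 0.051 to 0.099). Among members not called, the lowest large subunit values were those of Mrpl1 (-0.24, adjusted p = 0.27), Mrpl17 (-0.12, adjusted p = 0.42) and Mrpl10 (-0.11, adjusted p = 0.099). The highest were those of Mrpl53 (0.48, adjusted p = 0.35), Mrpl3 (0.41, adjusted p = 0.36) and Mrpl15 (0.33, adjusted p = 0.27), all with a wide spread inside groups. Mrps5 (-0.22, adjusted p = 0.24) and Mrps22 (0.20, adjusted p = 0.075) stood next to the called members of the small subunit.

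Summed over the members, the large subunit stood at 2278, 2186 and 2212 TPM in control, 2364, 2435 and 2422 TPM with Zscan4f and 2297, 2265 and 2216 TPM with Zscan4f3A. Every Zscan4f library lay above every other library. The means were 2225 ± 47.3, 2407 ± 37.6 and 2259 ± 40.4 TPM (SD, n = 3). The small subunit, at 1253 ± 34.4, 1301 ± 46.8 and 1230 ± 39.3 TPM, overlapped between groups. The ratio of the large to the small sum was 1.78 ± 0.0791, 1.85 ± 0.0385 and 1.84 ± 0.0279. No test was made of these sums, and in RNA from a whole culture fewer cells with a transcript and less of it per cell cannot be told apart.

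**Figure D3:**
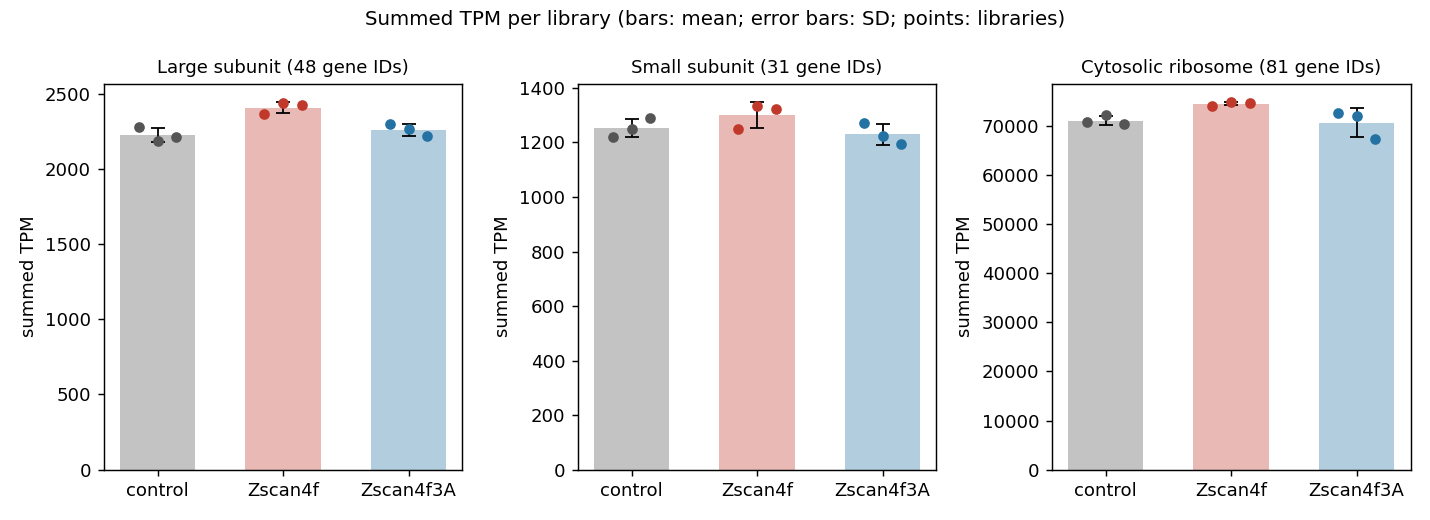
Summed TPM of the large subunit members, the small subunit members and the cytosolic ribosomal proteins; bars are means, error bars SD and points the 3 libraries of each group. The Zscan4f libraries lie above all others for the large subunit (2364 to 2435 TPM) and for the cytosolic ribosome, while the small subunit groups overlap.

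Single libraries took an uneven share of the extremes. Zscan4f replicate 3 held the highest of the 9 values for 23 of 79 members and Zscan4f replicate 2 for 16, that is 29.1% and 20.3%, where they did so for 12.2% and 11.1% of all genes tested. The lowest value lay in control replicate 2 for 20 members (25.3%) and in Zscan4f3A replicate 3 for 18 (22.8%), against 10.1% and 16.9% of all genes. Without control replicate 2 the count of called small subunit members against control was 2 and without Zscan4f replicate 3 it was 2, where all libraries gave 6. The count was below 6 without any other single library as well. The small subunit median log2 fold change was 0.06 and 0.08 in these 2 fits, against 0.06 with all libraries. The share of all genes called in these fits is not reported here. Marker genes also moved with the group. All 6 epithelial markers rose with Zscan4f, and their sum was 65.3 to 66.6 TPM in control, 195 to 200 TPM with Zscan4f and 76.2 to 82.6 TPM with Zscan4f3A. Cd68, the 1 macrophage marker that passed the filter, rose as well, and the 4 macrophage markers summed to 11.8 to 13.6 TPM in control, 17.8 to 20.5 TPM with Zscan4f and 12.1 to 13.8 TPM with Zscan4f3A. So did Tek, the 1 endothelial marker that passed, and those 4 summed to 29.98 to 32.7, 45.7 to 46.9 and 31.7 to 33.3 TPM. The 4 skeletal muscle markers summed to 2.62 TPM at most and the 4 pluripotency markers to 2.07 TPM at most. As for fibroblasts, 3 of 12 markers rose and 6 fell. Their part in the member values was not tested.

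Other genes of mitochondrial translation gave a few calls against control. Of 7 further subunits of the mitochondrial ribosome that carry other names, such as Dap3, 0 were called. Of 24 gene IDs of ribosome assembly factors 3 rose and 1 fell (16.7% called, against 18.5% of all genes), and 2 of those that rose are copies of 1 gene. Mrm1, which methylates the large ribosomal RNA, rose from 15.9 ± 1.05 to 20.3 ± 0.832 TPM (SD, n = 3; log2 fold change 0.33, limma adjusted p = 0.013). Mpv17l2, an assembly factor of the inner membrane, rose on its chromosomal copy (0.20, adjusted p = 0.049) and its patch copy (0.21, adjusted p = 0.028), which split the reads of 1 sequence. Mterf3, which acts in large subunit assembly, fell from 41.8 ± 1.12 to 31.8 ± 3.25 TPM (SD, n = 3; log2 fold change -0.39, limma adjusted p = 0.023).

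Of 11 translation factors, 0 rose and 1 fell (9.09% called, against 18.5% of all genes): Guf1, a translocase that can move the ribosome back, went from 24.5 ± 0.974 to 19.0 ± 1.23 TPM (SD, n = 3; limma adjusted p = 0.039). Gfm2, which helps recycle the ribosome, rose against Zscan4f3A (0.30, adjusted p = 0.023). None of the 17 mitochondrial aminoacyl-tRNA synthetases, 12 genes of mitochondrial DNA copying and transcription, and 8 tested regulators of nuclear genes for mitochondria were called against control by limma. At an unadjusted p under 0.05 there were 1, 2 and 1 of them, against 4923 of the 15837 genes tested. Nrf1, whose motif was searched, had a log2 fold change of 0.01 (adjusted p = 0.95), Gabpa, an ETS factor, 0.12 (adjusted p = 0.097) and Yy1 -0.03 (adjusted p = 0.75).

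Of the 13 mRNAs of mitochondrial DNA, which this ribosome translates, 1 rose and 1 fell (15.4% called, against 18.5% of all genes). mt-Nd1 rose by 0.14 (adjusted p = 0.017). mt-Atp6 fell by 2.101 (adjusted p = 5.9e-05), from 7679 ± 2135 TPM in control to 1745 ± 4.21 TPM with Zscan4f (SD, n = 3), and stood at 9677 ± 246 TPM with Zscan4f3A. Its reading frame overlaps that of mt-Atp8, so its reads can be split between the genes and its value is uncertain. None of the 13 mRNAs had a log2 fold change against control above 0.14. Their median log2 fold change against control was -0.02, with 5 above 0 and 8 below. Their sum was 93535 ± 3232 TPM in control, 87659 ± 243 TPM with Zscan4f and 94261 ± 2139 TPM with Zscan4f3A (SD, n = 3). That sum includes mt-Atp6. Whether reads moved between mt-Atp6 and mt-Atp8 was not tested. The 2 mitochondrial ribosomal RNAs were not called, at summed levels of 609 ± 12.5 TPM in control, 654 ± 79.0 TPM with Zscan4f and 752 ± 97.5 TPM with Zscan4f3A (SD, n = 3).

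Of 79 gene IDs for proteins of the cytosolic ribosome, 6 were called higher (7.59%, against 8.74% of all genes) and 0 lower, with a median of 0.06 and 84.8% of them above 0. Rpl4 (0.11, adjusted p = 0.013) and Rps27a (0.24, adjusted p = 0.016) were among those called. Their sum was 71012 ± 958 TPM in control, 74468 ± 333 TPM with Zscan4f and 70626 ± 2894 TPM with Zscan4f3A (SD, n = 3). Of 78 nuclear genes of oxidative phosphorylation 7 rose (8.97%) and 0 fell, with a median of 0.04. The 4 with the smallest p were Atp5o (0.28, adjusted p = 0.0080), Atp5f1 (0.16, adjusted p = 0.017), Ndufa4 (0.27, adjusted p = 0.022) and Atp5h (0.15, adjusted p = 0.036), of ATP synthase and, for Ndufa4, the respiratory chain. Values above 0 thus made up most of these lists as well (84.8% and 65.4%), and no difference between the lists was tested.

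**Figure D4:**
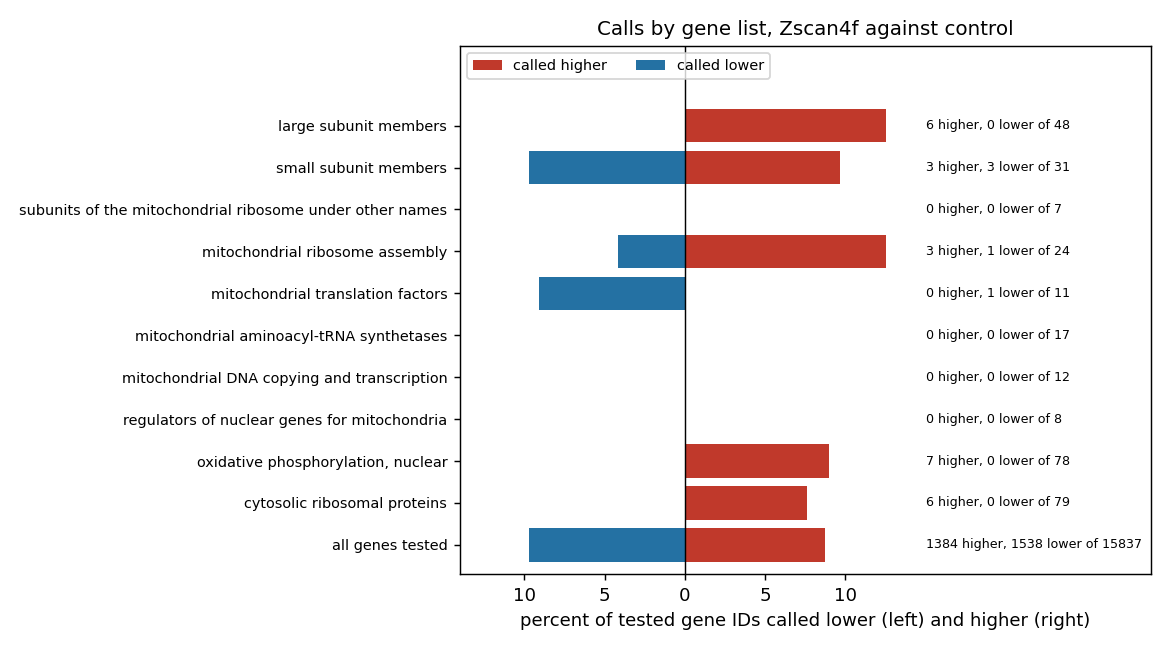
Percent of the tested gene IDs of each list called lower (left) and higher (right) with Zscan4f against control, with the counts beside the bars. Calls lie on the right only for large subunit members by gene name (6 of 48) and cytosolic ribosomal proteins (6 of 79). The same holds for nuclear oxidative phosphorylation genes (7 of 78). All genes tested have 8.74% on the right and 9.71% on the left.

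Some members sit head to head with another gene. Of the 79, 36 have a neighbour that starts within 1000 bases on the opposite strand, and 34 of these neighbours were tested. The share of all genes with such a neighbour is not reported here, so this layout is not shown to be particular to the members. Against control 7 of these 34 members and 3 of the neighbours were called, and in 0 pairs were both called. The neighbours called were Psma2 beside Mrpl32 (log2 fold change 0.25, adjusted p = 0.0059), Fau beside Mrpl49 (0.15, adjusted p = 0.0088) and Ncapd2 beside Mrpl51 (0.37, adjusted p = 0.0082), all higher. That is 8.82% of the neighbours, against 18.5% of all genes.

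Mrps12 and Sars2, the mitochondrial seryl-tRNA synthetase, start 172 bases apart across the Mrps12 stretch printed above. Sars2 stood at 11.2 ± 1.94 TPM in control and 13.0 ± 0.721 TPM with Zscan4f (SD, n = 3; log2 fold change 0.21, limma adjusted p = 0.36), while Mrps12 fell. Mrpl40 and Hira start 175 bases apart, and Hira had a log2 fold change of -0.02 (adjusted p = 0.88). Ptcd2, 81 bases from Mrps27, had 0.22 (adjusted p = 0.12), and Ppp1r10, 45 bases from Mrps18b, had 0.20 (adjusted p = 0.064). Whether member and neighbour differed from each other was not tested. Mrpl46 and Mrps11 are each other's neighbours and overlap at their heads, so this pair was counted from each side. Neither Mrpl46 nor Mrps11 was called against control.

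**Figure D5:**
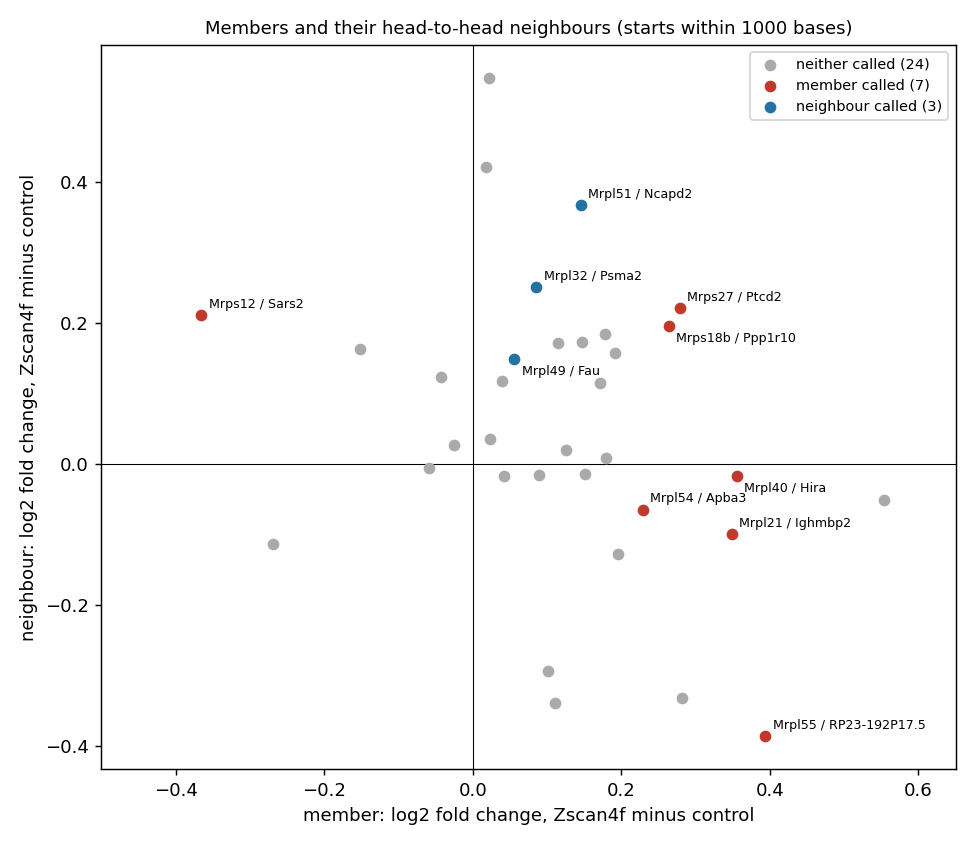
Log2 fold change with Zscan4f against control of each member (horizontal) and its head-to-head neighbour (vertical), for the 34 pairs tested. Neighbours start within 1000 bases on the opposite strand. The pair of Mrpl46 and Mrps11 is counted from each side. Red points mark the 7 pairs with a called member, blue points the 3 with a called neighbour, and no pair has both; Mrps12 lies left of 0 while its neighbour Sars2 lies above 0.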

How the data were processed

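Total RNA of 9 libraries was sequenced by the authors with a TruSeq RNA kit, per the labels' protocols. Reads were aligned with HISAT2 2.1.0 and abundances estimated with StringTie, per the submitters' processing notes, which give no StringTie version. No source used here names the genome build or annotation; 97.7% of the gene IDs found in GENCODE M21 (GRCm38) had identical positions, so coordinates are on GRCm38. The deposited values are TPM and FPKM per gene and coverage, the mean read depth over a gene; no counts were used. The ratio of coverage to FPKM gave an estimate of aligned sequence for each library, and precision is stated as the SD of 3 libraries because intervals would need counts. Groups came from the labels.

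TPM was summed per gene ID, genes with at least 1 TPM in at least 3 of 9 libraries were kept, and log2(TPM + 1) was fitted with limma 3.58.1 in R 4.3.3 (group means, all 9 libraries, empirical Bayes with trend). A pseudocount of 1 understates the fold changes of low genes. A call needed a two-sided p under 0.05 after Benjamini-Hochberg adjustment across 15837 genes. The code was tested on simulated data. Members, gene lists, motifs and the rule for named genes (called members, the ends of each ranking, the highest, lowest and most variable members, the S18 trio, called genes of each list, at most 4, some of which are not reported here) were chosen with earlier results of these data known. Other settings tried were FPKM in place of TPM, 2 other scalings (median of ratios, quantiles), 0.1 as pseudocount, a filter at 5 TPM or none, a fit restricted to the compared groups, a prior variance that was robust or had no trend, blocking on replicate number, subunits assigned by structure, and the omission of each library; summing the patch copies was chosen after seeing the data. Tables were made with Python 3.11.15, pandas 2.3.3 and numpy 2.4.6, and figures with matplotlib 3.10.9.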

Additional observations from a re-analysis of the deposited data

How the results depend on the processing

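Of the 21 calls of single members, 8 held under all 20 settings, and 0 called members reversed direction. Against control the large subunit count (6) stayed within 1.5 times under every setting and ran from 4 to 8 when single libraries were left out. The small subunit count against control (6) was 3 without the filter on low values and ran from 2 to 5 with a library left out. Between Zscan4f and Zscan4f3A the large subunit count (4) was 1 without the filter, 2 in a fit of the 2 groups alone and 1 with the replicate number as a block, and ran from 0 to 4 with a library left out. The small subunit count (5) was 3 without the filter, 3 in the fit of the 2 groups, 3 without the trend of the prior variance and 3 with the replicate block, and ran from 2 to 5. Zscan4f3A against control gave 0 called members under every setting. Counting Mrps30 and Mrps18a with the large subunit, where they sit by structure, gave 7 large (6 higher, 1 lower) and 5 small subunit calls against control. Without the filter 33314 genes were tested in place of 15837. The share of all genes called under each setting is not reported here, so these counts do not single out the members. Causes of these moves were not tested.

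Same-numbered libraries did not deviate together: correlations of their deviations from the group means ran from -0.079 to 0.053, so the numbers were not taken as pairs. With the replicate number as a block the counts against control were 6 and 5. The block ended the calls of Mrps18a and Mrps18b against control and of Mrpl40, Mrpl47, Mrpl55, Mrps21 and Mrps27 against Zscan4f3A, and added a call of Mrps15 against control. Over the 20 settings the large subunit median against control ran from 0.10 to 0.16 and the small subunit median from 0.06 to 0.08, while that of all genes ran from -0.01 to 0.01. Depth was lowest in Zscan4f3A replicate 3, and without counts its weight on low members could not be computed.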
